A study of Rattus norvegicus with 6 samples.

Results

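rno-miR-204 and rno-miR-211 are a pair of sister microRNAs (miRNAs) of the rat, and their signal was described here in kidneys of rats treated with aristolochic acid (AA) and of untreated rats. Probes were taken as members when the array's annotation gave them the rat name rno-miR-204 or rno-miR-211, or when another species' probe carried the same name. Passenger strands, whose names end in a star, were left out. The rule found 4 of the 5560 miRNA probes on the array. The probe of rno-miR-204 and the probe of rno-miR-211 carry rat names, and the other 2 probes, hsa-miR-211 and bta-miR-211, were designed for the human and the cattle miR-211.

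All animals, controls included, were males of the Fisher 344 strain with the Big Blue transgene, a reporter for mutations. The AA group was given the sodium salt of aristolochic acid, a plant toxin and carcinogen of the kidney, by gavage at 10.0 mg/kg body weight on 5 occasions a week over 12 weeks, from an age of 6 weeks. The controls are labelled as untreated, with the same age of 6 weeks at the start. In the AA group the kidney was frozen 1 day after dosing ended. Small RNA of each kidney was tailed, tagged, stained with Cy3 and hybridized, 1 array per animal. Control replicates 13, 14 and 15 and AA replicates 19, 20 and 21 were measured, so each group held 3 arrays. Whole pieces of kidney were used, so fewer cells of a type and less RNA per cell cannot be told apart.

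miR-204 and miR-211 are short RNAs that guide the Argonaute protein to messenger RNAs, chiefly by pairing of their seed. They share that seed, and their target sets therefore overlap. miR-204 is known as a miRNA of epithelia such as the retinal pigment epithelium, the choroid plexus and the renal tubule, while miR-211 is best known from melanocytes. Each lies within a gene of a TRPM ion channel and can be transcribed with it.

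The mature sequences of both rat miRNAs are shown first because they decide what a probe can tell apart. In RefSeq on the rat assembly GRCr8, the guide strand of Mir204 lies at chr1:229743493-229743514 on the plus strand, within Trpm3 (chr1:229099741-229984172). The guide strand of Mir211 lies at chr1:127189353-127189374 on the plus strand, within Trpm1 (chr1:127130686-127247219). The exons of the host genes were not used here. The probe targets of both rat names equal the RefSeq mature sequences letter for letter. Below, each target is written 5′ to 3′ with the seed, bases 2 to 8, in capitals.
rno-miR-204: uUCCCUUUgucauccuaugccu
rno-miR-211: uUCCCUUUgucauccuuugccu
hsa-miR-211: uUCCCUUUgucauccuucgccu
bta-miR-211: uUCCCUUUgucauccuuugcc
tni-miR-204b: uUCCCUUUguuauccuaugccu

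Counted from 1 at the 5′ end, rno-miR-211 differs from rno-miR-204 by the single substitution A17U. The human miR-211 carries A17U and U18C. The cattle miR-211 carries A17U and is shorter by 1 base at its 3′ end. The fifth sequence, tni-miR-204b, is a pufferfish miRNA with the substitution C11U. Its name has a letter, so it is no member and is given as context. These 5 are the only probes on the array whose target holds UCCCUUU at bases 2 to 8. Binding of one sister miRNA to the other's probe was not tested.

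The hairpins show where the strands sit. Both mature strands are in capitals, the guide strand first and the passenger strand second. The passenger strands equal the targets of the probes rno-miR-204* and rno-miR-211*.
Mir204, chr1:229743461-229743570, plus strand: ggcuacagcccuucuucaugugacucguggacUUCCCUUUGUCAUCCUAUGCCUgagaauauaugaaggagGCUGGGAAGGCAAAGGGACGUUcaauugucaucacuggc
Mir211, chr1:127189328-127189433, plus strand: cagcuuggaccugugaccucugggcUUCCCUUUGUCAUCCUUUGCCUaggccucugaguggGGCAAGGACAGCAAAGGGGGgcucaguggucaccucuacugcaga

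One library stood apart. Over the 1132 probes that passed the filter on low values, Pearson's r of log2 signal between AA replicate 20 and each of the other 5 arrays was 0.818 to 0.867 across probes, whereas the 10 pairs of the other arrays gave 0.937 to 0.988. On this array the deposited value of rno-miR-122, a miRNA of hepatocytes, was 15191, against 8.17 to 48.5 on the other 5 arrays. The 4 kidney epithelial markers did not move together on it. rno-miR-194 and rno-miR-30a had their lowest deposited values there, 264.1 and 438.8, against 432.0 to 801.6 and 1532 to 1980 elsewhere. rno-miR-200b had its highest value there, 3041, against 1877 to 2744, and rno-miR-192, at 1295, lay within the range of the other arrays, 1189 to 1586. The part of this library in the results was not tested beyond leaving it out, and values without it are given.

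The tissue label was checked against marker miRNAs with an intensity of 32, the study's threshold for a measured probe. All 4 kidney epithelial markers reached it on all 6 arrays. Of the 4 leukocyte markers with a rat probe, rno-miR-150 reached it on all 6 and the other 3 on none. rno-miR-126 of the endothelium and 4 of the 5 stromal markers reached it on all 6. Both brain markers and 2 of the 3 markers of striated muscle, rno-miR-1 and rno-miR-133a, stayed below 32 throughout, while rno-miR-206 reached it on all 6.

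None of the 4 members reached 32 on any array. Their highest deposited value was 17.8. Averaged over its spots, rno-miR-204 gave faint signal above the median of the empty spots on every array, and least on AA replicates 20 and 21. The rno-miR-211 probe gave signal that mostly lay within the range of empty spots in both groups. No difference between AA and control passed the test for any of them.

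The deposited intensity of the rno-miR-204 probe was 7.15, 9.57 and 17.8 on control replicates 13, 14 and 15. On AA replicates 19, 20 and 21 it was 11.9, 0.00594 and 1.08. The groups overlapped, since AA replicate 19 exceeded control replicates 13 and 14. The lowest deposited value was that of AA replicate 20, the library that stood apart. By scanner signal over the median of the array's empty spots, AA replicate 21 was lowest, at 3.11 against 6.4 on AA replicate 20.

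The rno-miR-211 probe had deposited values of 0.00183, 2.97 and 5.56 in the controls and 0.726, 0.00342 and 0.0301 in the AA group. The human miR-211 probe had 0.00175, 0.519 and 3.32 in the controls and 0.511, 0.0038 and 2.10 in the AA group. The cattle miR-211 probe had 0.653, 0.0285 and 0.0152 in the controls and 6.29, 1.48 and 0.0152 in the AA group. The groups overlapped for each of these 3 probes. Values this far below the threshold of 32 are given as deposited, and no order is read from them. On control replicate 13, the rno-miR-211 and human miR-211 probes read -10.1 and -6.8 against the median of the array's empty spots. Their deposited values there are nonetheless above 0.

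**Figure D1:**
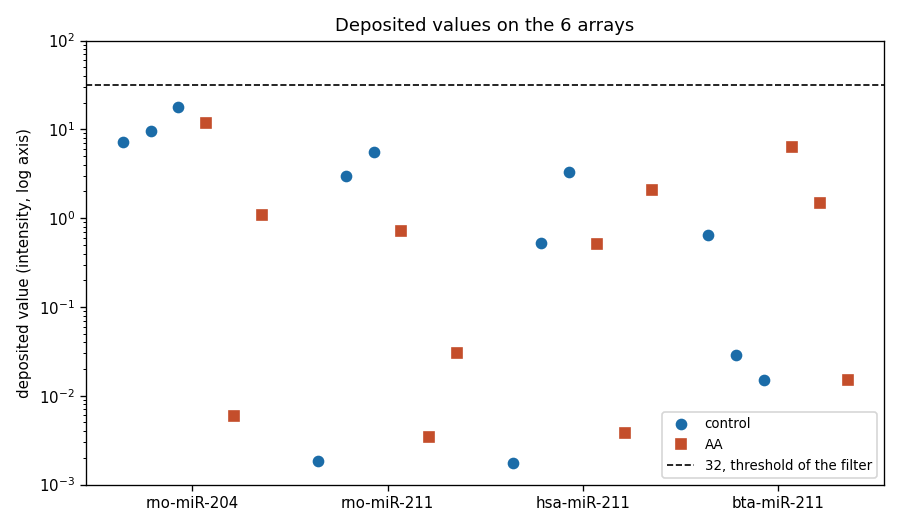
Deposited intensity (log axis) of the 4 probes on the 6 arrays, controls (circles, replicates 13, 14 and 15 from left to right) and AA (squares, replicates 19, 20 and 21). Every point lies below the dashed line at 32, and the highest is 17.8 for rno-miR-204 in control replicate 15.

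Because the deposited values start from a background that the authors had subtracted, the scanner signal of single spots was read against empty spots, which hold no probe. Each member has 2 spots on an array. The empty spots of an array had medians of 74.87, 49.38 and 57.16 on control replicates 13, 14 and 15 and of 49.95, 73.05 and 53.01 on AA replicates 19, 20 and 21. Background also differed within an array: on control replicate 13 the median was 64.48 in block 1 and 78.89 in block 3. Each spot was therefore set against the 902 to 995 empty spots of its own block.

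The rno-miR-204 spot in block 1 exceeded the median of the block's empty spots by 16.4, 12.5 and 13.8 intensity units in the controls. In the AA group the same spot exceeded it by 9.28, fell below it by 0.395 (-0.395) and exceeded it by 0.51. The spot in block 3 exceeded the median by 37.0, 8.41 and 17.4 in the controls and by 23.3, 14.3 and 10.1 in the AA group. All 6 control readings therefore lay above the empty median by 8.41 or more, and the only readings close to it were those of block 1 on AA replicates 20 and 21.

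A reading was called above the limit when it passed the median of its block's empty spots by 3 robust standard deviations (SDs). rno-miR-204 passed this limit in 9 of 12 readings, 6 of 6 in the controls and 3 of 6 in the AA group. The 6 readings of a group are 2 spots on each of 3 arrays, not 6 replicates. Only 0.749% of the readings of the empty spots themselves passed it. The height of the limit differed between arrays. In block 3 of AA replicate 20, where the robust SD was 8.73, a reading of 14.3 over the median stayed below the limit. In block 3 of control replicate 14, where it was 2.24, a reading of 8.41 passed. Among the 679 probes with a rat name, the median was 3 of 12 readings, and 28.6% had 9 or more. The rno-miR-204 probe thus stood above empty spots more often than a middling rat probe did, at a level too low for the filter.

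In the same way, rno-miR-211 passed the limit in 1 of 12 readings, that of block 2 on control replicate 15. Its readings ran from -7.64 to 9.28 around the empty median. Of the rat probes, 39.3% passed in 1 reading or in none. hsa-miR-211 passed in 1 reading and bta-miR-211 in 2, the latter both on AA replicate 19. Over the 3 miR-211 probes, 4 of 36 readings passed, 1 of 18 in the controls and 3 of 18 in the AA group. Of the readings of empty spots, 0.749% passed. Probes and spots of an array are not replicates, and each group held 3 arrays, so these counts do not compare the groups.

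**Figure D2:**
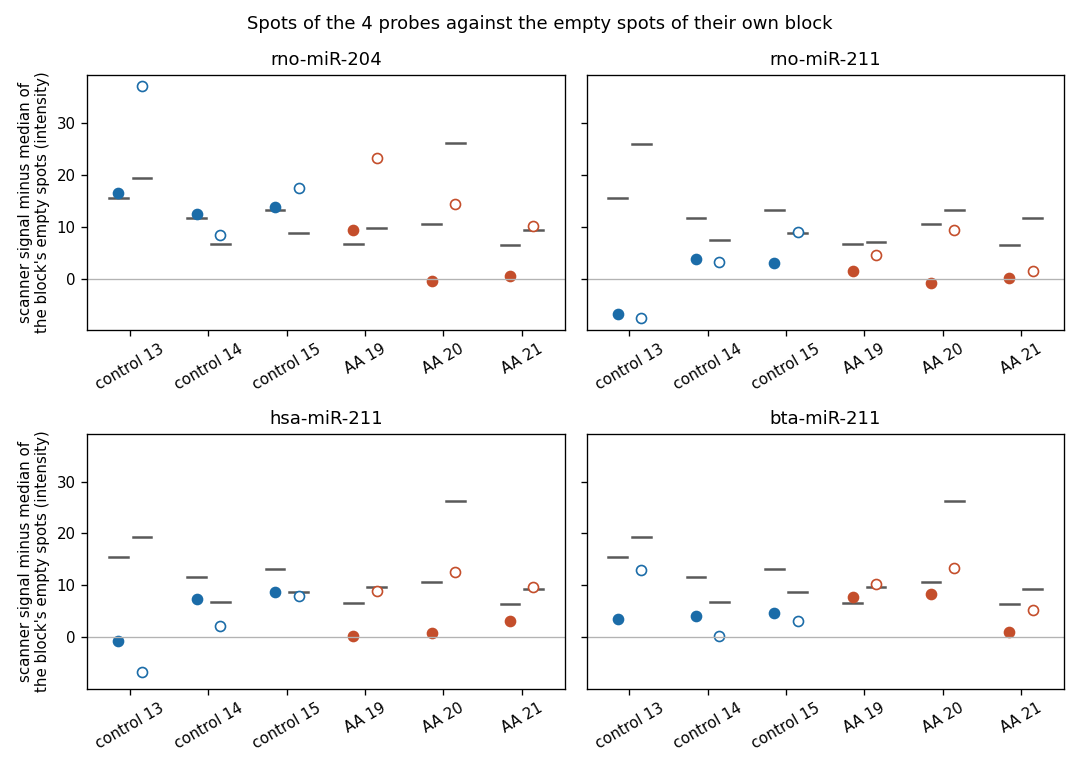
Scanner signal of each spot minus the median of the empty spots in its block (intensity), by array, for the 4 probes; filled symbols are the spot in block 1, open symbols the other spot, blue controls and red AA, and grey bars mark 3 robust SDs of the block's empty spots. rno-miR-204 lies above its bar in 9 of 12 readings, and rno-miR-211 in 1 of 12.

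The rank among empty spots gave the same picture without a limit. The 6 control readings of rno-miR-204 exceeded 98.0% to 99.9% of the empty spots of their block. In the AA group, 4 readings exceeded at least 98.8% of them, and the block 1 readings of AA replicates 20 and 21 exceeded 44.9% and 58.6%. The readings of rno-miR-211 were spread from 7.65% to 98.7%, with 3 of 12 above 95%. Those of hsa-miR-211 ran from 12.4% to 99.4%, with 6 of 12 above 95%. Those of bta-miR-211 ran from 56.4% to 99.9%, with 5 of 12 above 95%.

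**Figure D3:**
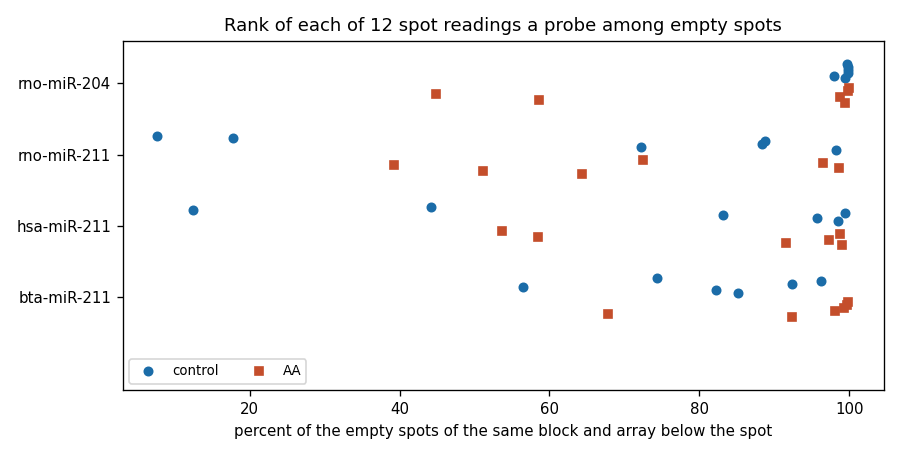
For each probe, the percent of empty spots of the same block and array with a lower signal than the spot (x axis), for 12 readings, controls as circles and AA as squares. Readings of rno-miR-204 gather above 98% apart from those of AA replicates 20 and 21 in block 1, at 44.9% and 58.6%, while readings of rno-miR-211 run from 7.65% up.

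Averaged over both spots, rno-miR-204 exceeded the empty spots of its blocks by 26.7, 10.5 and 15.6 in the controls and by 16.3, 6.95 and 5.30 in the AA group. The means were 17.6 ± 8.30 (SD, n = 3) and 9.52 ± 5.92 (SD, n = 3). The groups overlapped, and an exact permutation test of the difference, 2-sided, gave p = 0.3, where 3 arrays against 3 cannot give less than 0.1. Without AA replicate 20 the AA mean was 10.8.

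The rno-miR-211 probe exceeded its blocks' empty spots by -7.24, 3.45 and 5.93 in the controls and by 2.96, 4.21 and 0.74 in the AA group. The means were 0.713 ± 7.0 (SD, n = 3) and 2.64 ± 1.76 (SD, n = 3), the groups overlapped, and the exact permutation test, 2-sided, gave p = 0.9. Control replicate 13, the array with the widest spread of empty spots, held the lowest reading.

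A stricter measure compared the mean of both spots with the whole array. A probe was called well above background when this mean passed the median of all empty spots by 3 robust SDs. rno-miR-204 was well above background on control replicate 15 and AA replicate 19, which is 1 of 3 arrays in each group. Its largest excess over the array's empty median, 23.5, was on control replicate 13 and did not pass. The robust SD of that array was 10.7, against 3.05 to 5.43 on the others. The limit thus differed between arrays, and this count does not compare the groups. The 3 miR-211 probes were not well above background on any array. No fold change is therefore given for them.

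AA was compared with control by a linear model (limma) over all probes that reached 32 on at least 1 array. It tested 1132 probes and called 2, which is 0.177% of them, at an adjusted p of 0.05. No member was among the probes tested. In the same model without the filter, all 5560 probes were tested, 2 were called (0.036%) and 491 had an unadjusted p under 0.05. None of the 4 members was called there, and their adjusted p ran from 0.62 to 1.00.

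The normalized log2 signal of rno-miR-204 was 6.19, 6.22 and 6.30 in the controls and 6.27, 6.05 and 6.03 in the AA group. The group means were 6.24 ± 0.06 and 6.12 ± 0.14 (SD, n = 3). The groups overlapped, with AA replicate 19 above control replicates 13 and 14. The difference of AA minus control was -0.12 with an SE of 0.08 and a 95% interval of -0.32 to 0.08 (limma adjusted p = 0.62), and an exact permutation test, 2-sided, gave p = 0.3. An offset of 50 was added in the background correction, so a change of so faint a probe is understated on this scale. With the median of the block's empty spots subtracted in place of the offset, the difference was -1.23 with an SE of 0.65 (limma adjusted p = 0.488). In that setting, readings below 1 were raised to 1 before logs were taken. The block 1 spots on AA replicates 20 and 21, at -0.395 and 0.51, were among them. The size of this difference therefore depends on that floor. Without AA replicate 20, the difference with the offset was -0.09 (limma adjusted p = 0.762).

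The normalized log2 signal of rno-miR-211 was 5.89, 6.07 and 6.12 in the controls and 6.03, 5.99 and 6.02 in the AA group, and the AA values lay within the range of the controls. A change in the difference between both sister miRNAs was not tested, because that test was set for probes that passed the filter.

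The passenger strands are not members and were set beside them once. The probe of rno-miR-211* had deposited values of 6.69, 6.93 and 2.89 in the controls and 6.68, 17.2 and 18.1 in the AA group, and it was well above background on all 3 AA arrays and on no control array. The difference was 0.26 on the normalized log2 scale (limma without the filter, unadjusted p = 0.0405, adjusted p = 0.549) and did not pass. On that scale the groups did not overlap, and an exact permutation test, 2-sided, gave p = 0.1, the least that 3 arrays against 3 can give. Over the empty spots of its blocks, the mean was 12.4 ± 10.4 in the controls and 14.1 ± 3.45 in the AA group (SD, n = 3), and the groups overlapped. The probe of rno-miR-204* had 4.07, 1.44 and 2.95 in the controls and 11.3, 5.00 and 5.18 in the AA group, and its difference did not pass either (limma without the filter, adjusted p = 0.567). Its normalized log2 signals did not overlap between the groups (exact permutation test, 2-sided, p = 0.1). The same held for oan-miR-204*, which passed the limit of its block in 0 of 12 readings. The share of all probes whose groups do not overlap is not given, so no result is read from these cases. Over the empty spots of its blocks, its mean was 7.86 ± 7.57 in the controls and 10.3 ± 4.74 in the AA group (SD, n = 3), and an exact permutation test, 2-sided, gave p = 0.7. Star probes of other species did not share one direction. On the same scale, mmu-miR-204* had means of 13.8 and 5.47 and pma-miR-204* of 13.1 and 7.60 in the controls and the AA group, while oan-miR-204* had 1.37 and 3.8 and mmu-miR-211* 11.5 and 9.14. None of these 4 passed the test, which was run on the normalized log2 scale (limma without the filter, adjusted p = 0.588 to 0.766). On the normalized scale the difference of mmu-miR-211* was 0.05, opposite in direction to its block means. tni-miR-204b passed the limit of its block in 0 of 12 readings, and its deposited values ran from 0.00365 to 2.68.

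Most other miRNAs listed for the renal epithelium reached the threshold of 32 on the same arrays. Signals of different probes were not calibrated against each other, so they do not rank these miRNAs and rno-miR-204 by abundance. Of 15 miRNAs listed for the kidney epithelium (rno-miR-192, rno-miR-194, rno-miR-215 and members of the miR-30, miR-200 and miR-10 families), 13 reached 32 on all 6 arrays. rno-miR-215 and rno-miR-141 reached it on none. Of the 13 tested, 3 had a higher and 10 a lower mean in the AA group, and 0 passed the test (adjusted p = 0.885 to 0.969, with 1 at an unadjusted p under 0.05). The median log2 difference was -0.27, against -0.05 over the 1132 probes tested. Without AA replicate 20 the median turned to 0.23, with 11 of 13 higher and 0 called, against a median of -0.00351 over all probes, so 1 library set the direction of the list.

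The 3 members of this list with the lowest p were rno-miR-194, rno-miR-200a and rno-miR-200c. rno-miR-194, which is transcribed with miR-192 and is abundant in the tubule, had deposited values of 769.9, 608.1 and 801.6 in the controls and 453.1, 264.1 and 432.0 in the AA group. Its values in the AA group were all below the controls, and its log2 difference was -0.82 with an SE of 0.34 (limma adjusted p = 0.885). Without AA replicate 20 it was -0.52 (adjusted p = 0.593). The share of all probes whose groups do not overlap is not given, here or for rno-miR-200a below.

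rno-miR-200a belongs to the family that represses the ZEB transcription factors and so keeps cells epithelial. It had deposited values of 360.2, 357.3 and 285.3 in the controls and 366.2, 861.9 and 586.8 in the AA group. The AA values lay above the controls, by least on AA replicate 19, and the log2 difference was 0.58 with an SE of 0.27 (limma adjusted p = 0.885). Without AA replicate 20 this difference was 0.505 (limma adjusted p = 0.602). rno-miR-200c of the same family had 342.0, 471.9 and 370.3 in the controls and 431.2, 849.6 and 517.2 in the AA group. Its log2 difference was 0.39 with an SE of 0.25 (limma adjusted p = 0.885), and 0.337 without AA replicate 20 (limma adjusted p = 0.688). Its groups overlapped, since control replicate 14 exceeded AA replicate 19, and neither miRNA passed the test.

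**Figure D4:**
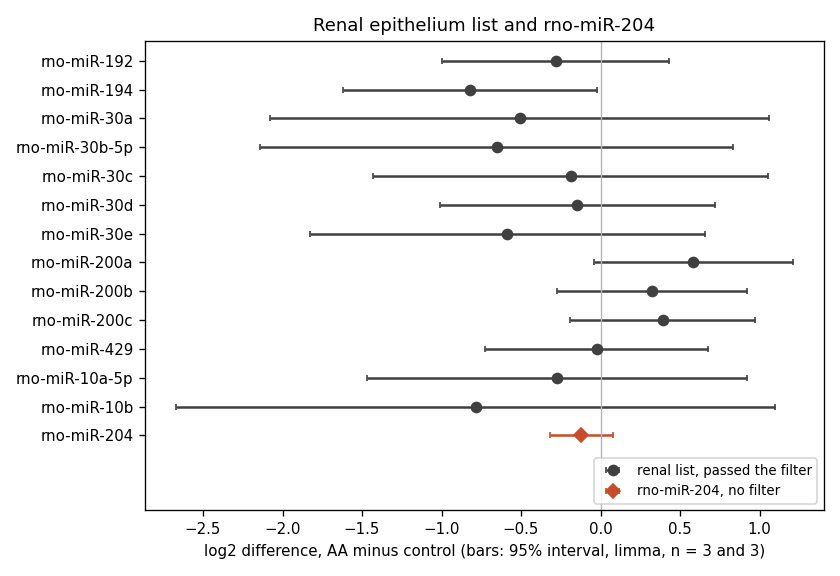
Log2 difference of AA minus control with 95% intervals (limma, 3 arrays a group) for the 13 renal miRNAs that passed the filter and, as the diamond, for rno-miR-204 without a filter. The interval of rno-miR-204, -0.32 to 0.08, was fitted on a signal close to background, to which an offset of 50 was added, so its width is not comparable with the others.

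The probes whose normalized signal followed that of rno-miR-204 most closely were sought among the 180 rat probes tested. Over the 6 arrays, Pearson's r was 0.971 for rno-miR-504, 0.944 for rno-miR-503*, 0.864 for rno-miR-532-3p, 0.849 for rno-miR-28* and 0.848 for rno-miR-872*. Without AA replicate 20, r was between 0.784 and 0.977. These values rank 180 probes on 6 arrays that share their normalization, and they are given as a description. No such ranking was made for rno-miR-211, which was not tested.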

How the data were processed

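The labels gave each array's group and replicate number, and they name no batch. As deposited, each scanner file holds linear intensity, the median over the pixels of a spot, for 15066 spots, neither background-corrected nor normalized (GenePix laser scanner, Array-Pro). A second, deposited table holds intensity that the authors had normalized by background subtraction and LOWESS. Its column medians over 5559 miRNA probes were 2.41, 2.19, 2.40, 2.37, 1.22 and 1.99 for replicates 13, 14, 15, 19, 20 and 21. Each column followed its array's scanner signal over 566 probes at or above 32 on all arrays (r = 0.969 to 1.00 across probes), so the values are linear, uncentred and in the direction of the signal. The LOWESS reference is not given in the sources used here.

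From the scanner files, normexp with an offset of 50 was run on all spots, log2 values of miRNA spots were quantile-normalized between arrays, and spots were averaged. Probes at 32 or more on at least 1 array in the deposited table were tested, and 1 probe outside that table was filtered on its scanner signal minus the empty-spot median. lmFit and eBayes of limma 3.58.1 under R 4.3.3 were used with Benjamini-Hochberg adjustment over all probes tested and a threshold of 0.05. The code was tested on simulated data. Robust SDs are scaled median absolute deviations of 2802 empty spots an array, and both limits built on them were defined for this work. The number of arrays limits the precision.

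Every member is described. Of the renal list, those that passed, or else the 3 with the lowest p, were named, as were the 5 tested rat probes most correlated with rno-miR-204. The likeness rule and the lists of renal and marker miRNAs, like the members, were chosen with earlier results of these data known. rno-miR-155 had no rat probe. The reading of spots by block was added after the values were seen. Marker lists also held rno-miR-375 and rno-miR-7a of neuroendocrine cells, at 32 on 4 arrays and on none. rno-miR-199a-5p reached 32 on 5 arrays and rno-miR-122 on 2.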

Additional observations from a re-analysis of the deposited data

How the results depend on the processing

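No paired analysis was possible because no replicate number occurs in both groups. No member reached the filter's 32, and none was called in any of the 18 fits run without the filter. Without the filter, the log2 difference of rno-miR-204 was below 0 in all 17 alternatives, with limma or t-test adjusted p from 0.455 to 1.00. It ran from -1.23, with the block's empty-spot median subtracted and low readings raised to a floor, to -0.07 without AA replicate 21. Leaving out 1 array gave -0.20 (without AA replicate 19) to -0.07. The fit without a filter was planned. These 17 each combine it with a further choice and were added after the data were seen, as was the subtraction by block. rno-miR-204 reached 32 on 0 arrays in the deposited table and by scanner signal minus either empty-spot median.

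Over all probes, 2 were called, against 0 with cyclic loess, with median scaling and with no normalization, and 44 with array quality weights, which gave AA replicate 20 a weight of 0.124. Leaving out 1 array gave 0 to 3: 3 without AA replicate 20 and 0 without each of the other 5. The median of the renal list, -0.27, was -0.89 with no normalization and 0.31 with array quality weights. It ran from -0.57 without AA replicate 21 to 0.23 without AA replicate 20. The causes were not tested. The planned test of the difference between both sister miRNAs was not run, since it was set for probes that passed the filter. The level of the members limits these results. rno-miR-204 was read from a signal close to that of empty spots, and rno-miR-211 from one mostly within their range. No change between the groups was detected for either.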
